A study of Bos taurus with 8 samples.

Results

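High and low milk yield were compared within lactation II in 4 cows of the Holstein Friesian breed that formed 2 pairs, each with 1 high-yield and 1 low-yield animal. The 4 arrays labelled low- or high-milk yield II belong to these 2 pairs, out of 8 arrays and 4 pairs in the series, and the other 2 pairs were in lactation IV. Each pair was hybridised to 2 Agilent bovine arrays of 2 colours, with the high-yield cow in Cy5 on array 1 and in Cy3 on array 2. All cows were healthy and lactating, without any agent given that the labels name, and RNA came from mammary gland tissue. The series gives mean yields of 11097 kg of milk per lactation for the high and 6956 kg for the low group, over both lactations together. The age of the cows and the stage of lactation at sampling are not given in the sources used here. Every value is a log2 ratio of high-yield over low-yield cow, so that 1 is a doubling and -1 a halving. It was turned by dye, and the 2 arrays of a pair were averaged, so that n = 2 pairs.

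In a lactating gland the alveolar epithelium makes caseins and whey proteins, synthesises lactose from glucose, and packs triglyceride into milk fat globules wrapped in its own membrane. Amino acids for this come from the blood or from synthesis in the cell, and the transcription factor ATF4 raises the genes of serine synthesis, amino acid transport and tRNA charging when amino acids are short or the secretory pathway is under load. The same epithelium also secretes defence proteins such as serum amyloid A3 and lipocalin 2 during inflammation. All of these genes were measured in bulk tissue, where fewer cells of a type and less RNA per cell cannot be told apart.

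The sequences below are those of the 60-base probes behind 3 results: the caseins, whose pair means had opposite signs, the serum amyloid genes, which were among the lowest in both pairs, and a set of genes whose probes share a run of sequence. The headers place probes on build HGSC Btau_3.1. Whether a probe lies in an exon was not analysed here. The whole probes of CSN1S1, alpha-S1-casein, at chr6:88307281-88307925 on the + strand, and of CSN1S2, alpha-S2-casein, at chr6:88421964-88422023 on the + strand, read as follows.
CSN1S1: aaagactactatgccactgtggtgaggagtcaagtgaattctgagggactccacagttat
CSN1S2: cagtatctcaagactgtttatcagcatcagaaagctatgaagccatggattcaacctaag
The casein probe of CSN1S1 spans more genome than its 60 bases. The probes of SAA3, at chr29:27684360-27684419 on the - strand, and of SAA2, at chr29:27773855-27773910 on the + strand, hold a common run of 24 bases, shown in capitals in a window of 30 bases, so that the signals of these genes may not be separate.
SAA3: acctAGAGAGTTCTCTGTCCTCAGAAGGca
SAA2: AGAGAGTTCTCTGTCCTCAGAAGGaagcag
ZNF33B (chr20:42293148-42293207, - strand), CPPED1 (chr25:12506187-12506246, - strand) and NIPSNAP1 (chr17:72265777-72265836, + strand) lie on 3 chromosomes. Their probes hold a common run of 27 bases, in capitals, which for NIPSNAP1 is on the opposite strand of its probe.
ZNF33B: gGTCATGTATGGATGTGAGAGTTGGACTgt
CPPED1: gGTCATGTATGGATGTGAGAGTTGGACTgt
NIPSNAP1: GTCATGTATGGATGTGAGAGTTGGACTata

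Across 12458 genes the pairs did not follow each other: Pearson's correlation of pair 1 with pair 2 was -0.0121 and Spearman's was 0.0591, as a description across genes, which are not independent. Pair 1 spread more widely, with an SD of 0.99 over genes against 0.42 in pair 2. In pair 1, 2282 genes (18.3%) had a ratio of at least 1 in size with both arrays of 1 sign, and in pair 2, 376 genes (3.02%) did. By this measure 10.2% of genes were higher and 8.08% lower in pair 1, and 1.78% were higher and 1.24% lower in pair 2. The arrays of pair 1 correlated at 0.800 and those of pair 2 at 0.332. Among the 8 array channels of lactation II, between 22027 and 42482 of 43653 probes were well above background. The lowest count was in the Cy3 channel of array 2 of pair 1, which held the high-yield cow. Its median net signal was 18.1, against 181.5 for Cy3 on array 1 of that pair.

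No gene passed the test of the mean of the 2 pairs (limma, Benjamini-Hochberg adjusted p under 0.05: 0 genes, 0%), and the smallest adjusted p was 0.379. Without adjustment, 680 genes (5.46%) had a p under 0.05, of which 385 (3.09%) were higher and 295 (2.37%) lower in the high-yield cows. An exact sign-flip test over 2 pairs cannot go below p = 0.5, so the accounts that follow are of sizes, signs and arrays. At a ratio of at least 1 in size in both pairs with the same sign on the 4 arrays stood 81 genes (0.650%), 60 higher (0.482%) and 21 lower (0.169%). At the same size but with opposite signs stood 105 genes (0.843%), 57 higher in pair 1 (0.458%) and 48 lower in pair 1 (0.385%). At any size, 30.4% of genes were higher in both pairs, 23.4% lower in both and 46.2% opposed, of which 19.5% of all genes were higher in pair 1 and 26.7% lower in pair 1. Many genes have more than 1 kept probe, and the probes do not always share a sign. Among the 60 shared higher genes 9 had a kept probe of opposite sign in a pair, as did 4 of the 21 shared lower, 7 of the 57 higher in pair 1 and 11 of the 48 lower in pair 1. Leaving out array 1 of pair 2 changed the shared count from 81 to 190 and the opposed count from 105 to 167.

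**Figure D1:**
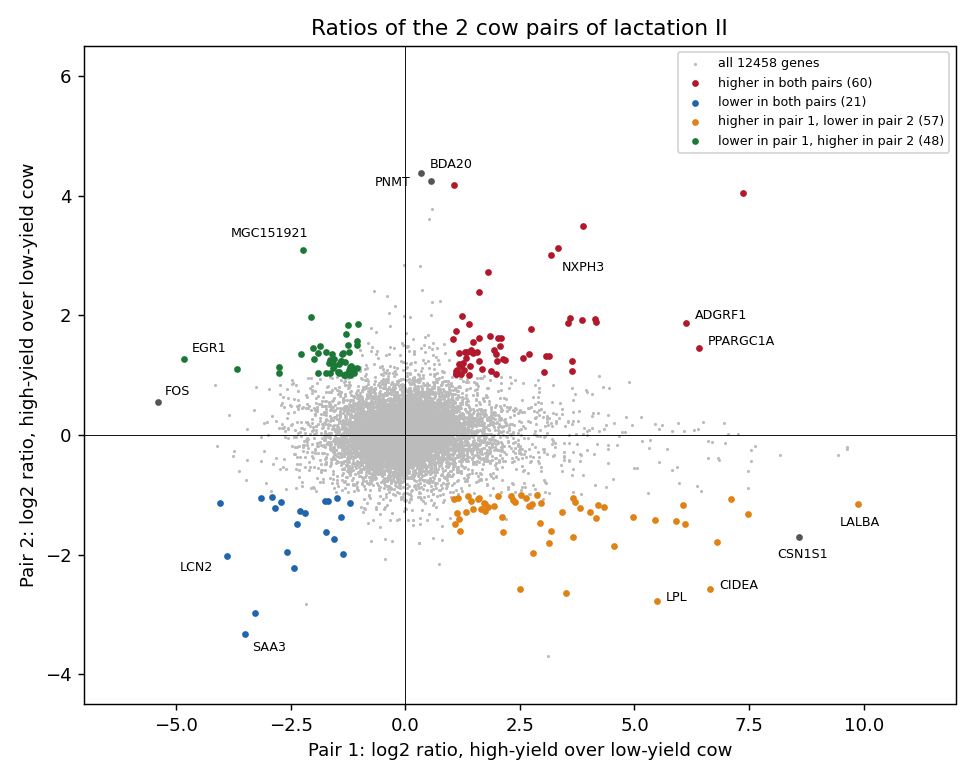
Each point is 1 of 12458 genes, with its log2 ratio (high over low yield) for pair 1 on the horizontal and for pair 2 on the vertical axis. Colours mark the 60 genes higher and 21 lower in both pairs and the 57 and 48 opposed genes, all at a ratio of at least 1 in size. The cloud is wider along pair 1 (SD 0.99) than along pair 2 (SD 0.42).

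Genes of serine synthesis and of the ATF4 response stood higher in the high-yield cows of both pairs. Of 18 measured members of that list, 14 were higher in both pairs, 14 were higher on all 4 arrays, 0 were lower in both and 4 were opposed. The median of the list was 1.52 in pair 1 and 0.78 in pair 2, against 0.00 and 0.05 over all genes, where 12.9% were higher and 10.1% lower on 4 of 4 arrays. By adjusted p, 0 of the 18 passed, and 11 had an unadjusted limma p under 0.05, beside 5.46% of all genes.

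TRIB3, a pseudokinase induced by ATF4, read 3.62 and 4.65 on the arrays of pair 1 and 1.69 and 2.18 on those of pair 2. The level of TRIB3, as log2 intensity rebuilt for each cow, was 12.86 and 12.57 in the high-yield cows and 8.72 and 10.64 in the low-yield cows. The groups of TRIB3 did not overlap, where 14.8% of all genes had both high-yield cows above both low-yield cows. Its mean ratio was 3.03 ± 1.56 (SD, n = 2 pairs, limma adjusted p = 0.736). PSAT1 and PSPH catalyse the last steps of serine synthesis. PSAT1 read 3.13 and 3.00 in pair 1 and 1.19 and 1.45 in pair 2, with a mean of 2.19 ± 1.23. PSPH read 1.41 and 2.77 in pair 1 and 1.55 and 1.68 in pair 2, with a mean of 1.85 ± 0.34, although its levels overlapped, at 9.98 and 12.85 in the high-yield and 7.89 and 11.24 in the low-yield cows. The first enzyme of the pathway, PHGDH, stood at 0.65 in pair 1 and 1.01 in pair 2.

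Further members had the same sign on every array. ASNS, asparagine synthetase, read 3.36, 1.78, 1.98 and 0.58 on arrays 1 and 2 of pair 1 and then of pair 2. DDIT3, a transcription factor of the stress response, stood at 1.04 and 1.60 in pairs 1 and 2, DDIT4 at 1.56 and 0.86, and ATF4 itself at 1.48 and 0.67. Not on that list but at least 1 in both pairs were the tRNA synthetases GARS1 (1.97 and 1.36) and MARS1 (1.13 and 1.08) and PCK2, the mitochondrial PEP carboxykinase (2.74 and 1.77). The exceptions within the list were ATF3 (-1.67 and 1.20), CEBPB (1.86 and -0.14), ALDH18A1 (1.05 and -0.27) and VLDLR (2.39 and -0.30). Amino acid transporters were less uniform, with 6 of 11 measured higher in both pairs, beside 30.4% of all genes. SLC1A5, a glutamine carrier, stood at 3.95 and 0.72 and SLC1A4 at 2.78 and 0.63, while SLC7A5 (2.95 and 0.09) and SLC38A3 (3.1 and 0.03) were near 0 in pair 2.

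NXPH3, a secreted neurexophilin, had the closest match of the pairs among the higher genes. Its arrays read 3.06 and 3.29 in pair 1 and 2.80 and 3.22 in pair 2, and its mean was 3.09 ± 0.12, an 8.53-fold higher signal (adjusted p = 0.379 by limma, the smallest of the fit). NXPH3, at chr19:38229896-38229955 on the - strand, was at 10.90 and 11.95 in the high-yield cows and at 7.73 and 8.93 in the low-yield cows. The other genes of the 10 highest by the smaller pair ratio were TMEM201, GADD45G, the histone gene H4, ADGRF1, FBP2 and ACSM1, beside TRIB3, PCK2 and PSPH. Of these 10, only PSPH had overlapping levels, where 14.8% of all genes had both high-yield cows above both low-yield cows, and these were chosen for their ratios.

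ADGRF1, an adhesion G protein-coupled receptor, differed in size between pairs, with 6.17 and 6.07 in pair 1 and 2.23 and 1.51 in pair 2. GADD45G, a stress-induced growth arrest gene, read 3.49, 4.20, 1.69 and 2.17. FBP2, a fructose bisphosphatase of gluconeogenesis, read 3.04, 4.05, 1.79 and 1.95, and ACSM1, which activates medium-chain fatty acids, 1.73, 2.34, 2.01 and 1.22. In TMEM201, of the inner nuclear membrane, array 1 of pair 2 read 0.40 against 3.52 on array 2, and its other probes stood at 0.46 and 0.20 in pair 1 and at 0.08 and -0.03 in pair 2. The probes of TMEM201 therefore disagreed.

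Some of the shared genes with larger ratios were not above background in 1 channel. CALB1, the calcium-binding calbindin, read 6.70 and 8.05 in pair 1 and 4.58 and 3.50 in pair 2, with 7 of 8 channels above background. CYP4B1, a cytochrome P450 that oxidises fatty acids, stood at 3.87 and 3.49, also with 7 channels. PPARGC1A, a coactivator of mitochondrial biogenesis, stood at 6.40 and 1.45. Of the 12 lipid regulators in its list 4 were higher in both pairs, which is near the 30.4% of all genes. PDK4, which restrains pyruvate oxidation, stood at 1.93 and 1.42. Of 42 oxidative phosphorylation genes, 26 were higher in both pairs, where 30.4% of all genes were, with medians of 0.85 and 0.14. On all 4 arrays 5 of the 42 were higher, beside 12.9% of all genes. The median of this list in pair 2 was -0.09 on array 1 and 0.23 on array 2. Of 47 mitochondrial ribosomal proteins, 30 were higher in both, with medians of 0.40 and 0.19, for example MRPL37 (0.78 and 0.83) and MRPS34 (1.20 and 0.53).

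Subunits of the epithelial sodium channel were higher on every array. SCNN1B read 1.14 and 2.08 in pair 1 and 2.19 and 2.58 in pair 2. SCNN1G read 1.68, 1.29, 1.62 and 1.12, while SCNN1A was opposed at 0.53 and -0.74. ATP2B2, the calcium pump of the apical membrane of mammary epithelium, stood at 1.68 and 1.1. HBA, a haemoglobin chain, stood at 2.08 and 1.48. Of 8 measured erythrocyte genes, 6 were higher in both pairs, where 30.4% of all genes were, with medians of 0.22 and 0.29. Only 3 of the 8 were above background in all 8 channels. The mean level of the 8 genes was 6.74 and 7.32 in the high-yield against 6.33 and 6.96 in the low-yield cows. The part of blood in the HBA value was not tested. Histone genes, singled out after their values were seen, held 5 of the 60 places among the shared higher genes (H4, H1-3, H2AC14, H2BC19 and H4C4). Of 29 tested, 17 were higher on all 4 arrays, beside 12.9% of all genes. The dimmest kept probe of H2AC14 stood at 0.32 in pair 1 and -0.36 in pair 2.

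**Figure D2:**
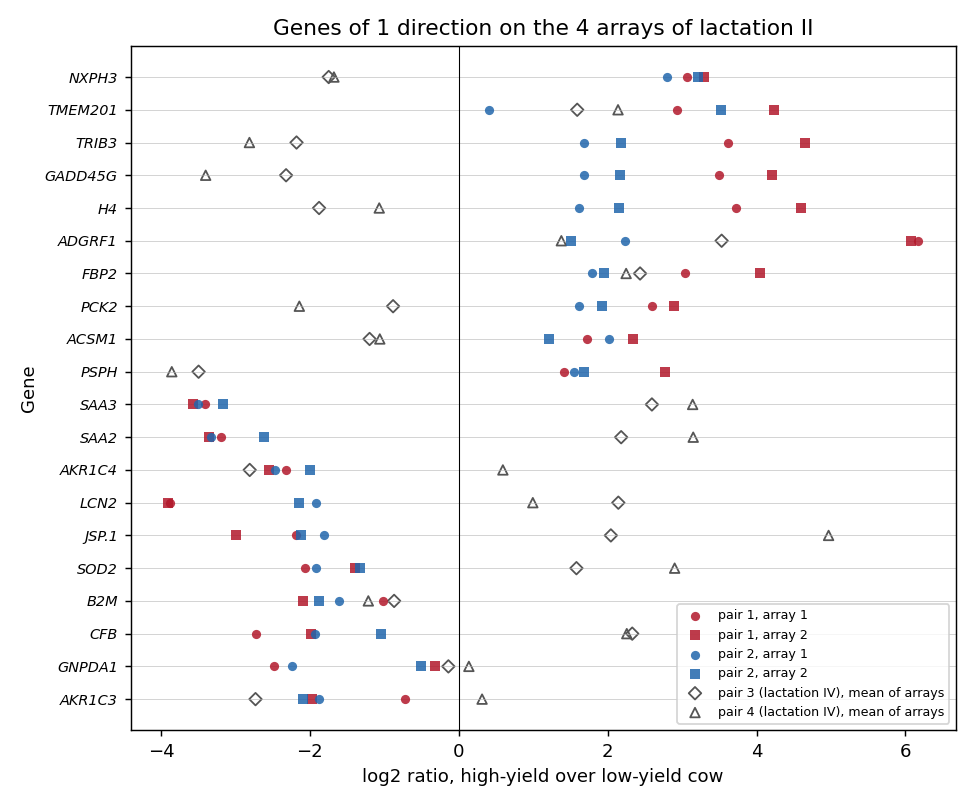
The 10 highest and 10 lowest genes of 1 sign on the 4 arrays of lactation II, with the log2 ratio of high-yield over low-yield cow on the horizontal axis. Filled points are single arrays of pairs 1 and 2, open symbols the means of pairs 3 and 4 in lactation IV. NXPH3 and SAA3 lie within a narrow range over the 4 arrays, and their pairs in lactation IV lie on the other side of 0.

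Serum amyloid A genes stood lower in the high-yield cows of both pairs, by similar amounts. SAA3, the acute phase protein made by the udder itself, read -3.41 and -3.57 in pair 1 and -3.50 and -3.17 in pair 2. The level of SAA3 was 12.97 and 11.15 in the high-yield cows and 16.46 and 14.49 in the low-yield cows. Both high-yield cows lay below both low-yield cows, as in 12.5% of all genes, and SAA3 was chosen for its ratios. The mean of SAA3 was -3.41 ± 0.11 (SD, n = 2 pairs; limma adjusted p = 0.379). All 6 of its kept probes were negative in both pairs, from -3.49 to -1.56 in pair 1 and from -3.33 to -1.72 in pair 2. SAA2, whose probe shares the run of 24 bases shown above, read -3.20, -3.35, -3.32 and -2.61, and its other kept probes stood at -2.03 and 0.26 in pair 1 and at -2.09 and 0.22 in pair 2. M-SAA3.2, a further serum amyloid entry, stood at -2.17 and -2.82, and its value on array 1 of pair 2 was left out as an outlier spot.

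LCN2, lipocalin 2, an iron-withholding antimicrobial protein, read -3.88 and -3.90 in pair 1 and -1.92 and -2.14 in pair 2. The dimmer of its 2 kept probes had the opposite sign, at 2.43 and 0.33, so the direction of LCN2 depended on the probe. CHI3L1, a chitinase-like protein of inflamed tissue, stood at -4.03 and -1.14, and SOD2, the mitochondrial superoxide dismutase, at -1.73 and -1.62. The whole list of acute phase and antimicrobial genes did not lean one way, with 7 of 26 higher in both pairs, 7 lower and 12 opposed. The cathelicidins CATHL1 (0.58 and 3.77) and CATHL4 (0.53 and 3.62) were higher in pair 2, and HP, haptoglobin, stood at -0.31 and -0.88.

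Class I antigen presentation was lower in both pairs for 12 of 17 measured genes, with medians of -1.0 and -0.48, where 23.4% of all genes were lower in both. B2M, the light chain of class I molecules, read -1.01 and -2.09 in pair 1 and -1.61 and -1.88 in pair 2. The level of B2M was 15.27 and 15.17 in the high-yield and 16.83 and 16.91 in the low-yield cows. The class I heavy chain JSP.1 stood at -2.58 and -1.96, BOLA at -1.99 and -0.89 and BOLA-A at -2.29 and -1.27. Heavy chain genes are close copies that differ between animals, and their probes may not be separate. PSMB9, a subunit of the immunoproteasome, was opposed at 2.32 and -0.80. Its other kept probes stood at 1.93 and -0.77 and at -1.19 and -0.23, so its sign in pair 1 depended on the probe.

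Of 20 measured complement genes, 12 were lower in both pairs and 8 were lower on all 4 arrays, beside 23.4% and 10.1% of all genes. The medians of the list were -1.35 and -0.24. CFB, complement factor B, read -2.73, -1.99, -1.92 and -1.05. CFI, which degrades activated C3 and C4, stood at -3.13 and -1.06 and C6, of the membrane attack complex, at -2.19 and -1.31. C3 itself stood at 1.17 and 0.34, with 4 of its 10 kept probes below 0 in pair 2. Of 27 cytokine, chemokine and Toll-like receptor genes, 14 were lower in both pairs, beside 23.4% of all genes. Among the 14 were CCL2 (-2.89 and -0.48), CCL8 (-2.67 and -0.54) and CXCL14 (-3.74 and -0.27).

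T and NK cell markers stood lower beside these genes: 13 of 18 were lower in both pairs, where 23.4% of all genes were. Their medians were -0.77 and -0.16. CD8A stood at -2.30 and -0.49, CD3E at -1.48 and -0.81 and the T cell kinase LCK at -2.09 and -0.45. Their mean level was 8.25 and 8.42 in the high-yield against 9.15 and 8.61 in the low-yield cows, so the distance was smaller in pair 2. CXCR6, a chemokine receptor of T cells, at -2.91 and -1.04, and the class II chain BOLA-DRB3, at -2.83 and -1.23, belonged to the 21 shared lower genes. Macrophage and dendritic cell markers were lower in both pairs for 7 of 14, beside 23.4% of all genes, with medians of -0.49 and -0.06. The part of immune cells in these results was not tested.

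Outside the immune lists, AKR1C4 and AKR1C3, aldo-keto reductases of steroid metabolism whose copies may share signal, stood at -2.43 and -2.23 and at -1.35 and -1.98. The dimmer probes of AKR1C3 stood at 0.12 and 0.28 in pair 1 and at -0.06 and 0.02 in pair 2. GNPDA1, a glucosamine phosphate deaminase, averaged -1.40 and -1.37, but its arrays read -2.48 and -0.32 in pair 1 and -2.24 and -0.50 in pair 2. In GNPDA1 the dye orientations thus differed more than the pairs. HSPA1A, the inducible heat shock protein 70, stood at -1.67 and -1.11, and CDO1, a cysteine dioxygenase, at -1.20 and -1.14. BOLA-DQA2, a class II chain, was higher at 3.33 and 3.12 with 5 channels above background, and its other probe stood at -0.48 and 0.20.

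Milk protein genes had pair means of opposite sign, with medians of 7.10 in pair 1 and -1.16 in pair 2. By pair mean all 7 were higher in pair 1 and lower in pair 2, where 19.5% of all genes had these signs. LALBA, alpha-lactalbumin, which sets lactose synthesis, read 9.37 and 10.36 in pair 1 and -0.76 and -1.55 in pair 2. The level of LALBA was 9.74 for the low-yield animal of pair 1 against 18.05 for that of pair 2, while the high-yield animals had 19.60 and 16.89. The low-yield cow of pair 1 therefore stood far below the other 3 cows of lactation II. It also stood below the 4 cows of lactation IV, whose levels of LALBA lay between 16.14 and 18.00.

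The caseins followed the same order. CSN1S1 read 9.34 and 7.83 in pair 1 and 0.03 and -3.43 in pair 2, CSN1S2 read 7.0, 6.59, -0.19 and -3.40, and CSN2, beta-casein, read 5.65, 5.25, -0.68 and -2.16. CSN3, kappa-casein, stood at 7.10 and -1.07, PAEP, beta-lactoglobulin, at 5.72 and -0.23, and GLYCAM1, a mucin-like milk protein, at 9.45 and -0.33. The high-yield cow of pair 1 had the highest rebuilt level of the 8 cows for these 7 genes, from 18.93 for GLYCAM1 to 19.66 for CSN3. Rebuilding adds part of the ratio to the mean intensity for this cow and subtracts it for the other. How far the excess comes from rebuilding was not tested. The dye orientations of pair 2 disagreed in sign for CSN1S1 (0.03 and -3.43) and GLYCAM1 (0.42 and -1.09). For CSN1S2 they disagreed in size, near 0 on array 1 and below -3 on array 2. The mean of LALBA over the pairs was 4.35 ± 7.79 and of CSN2 2.02 ± 4.86 (SD, n = 2 pairs; limma adjusted p = 0.744 and 0.779). All kept probes of CSN1S1, CSN1S2, CSN2 and LALBA had the same signs in both pairs as the probe used.

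**Figure D3:**
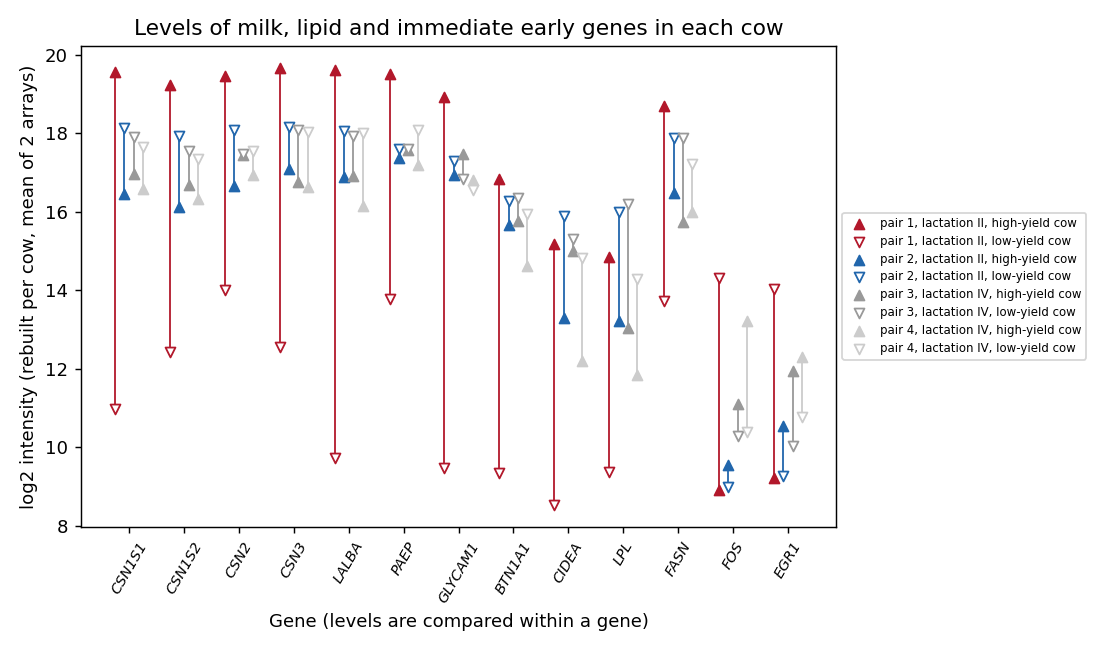
Level of 13 genes in each of the 8 cows, as log2 intensity rebuilt from the arrays and averaged over the 2 arrays of a pair, with filled triangles for high-yield and open triangles for low-yield cows. For LALBA the low-yield cow of pair 1 lies at 9.74 and the other cows between 16.14 and 19.60. For FOS the order is turned, with that cow at 14.32.

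Milk fat secretion took the same course, with medians of 3.14 and -0.43. By pair mean 12 of 12 genes were higher in pair 1 and lower in pair 2, beside 19.5% of all genes. CIDEA, a lipid droplet protein of milk fat secretion, read 6.39 and 6.92 in pair 1 and -2.53 and -2.63 in pair 2. The level of CIDEA was 8.53 for the low-yield animal of pair 1 and 15.88 for that of pair 2, with 15.19 and 13.30 in the high-yield cows. Of the 3 other kept probes of CIDEA, 1 stood at 3.90 and -2.55 and the other 2 at 5.50 and 2.11 and at 5.34 and 2.05, so the sign in pair 2 depended on the probe. BTN1A1, butyrophilin of the globule membrane, stood at 7.48 and -0.61, the mucins MUC1 at 6.98 and -0.13 and MUC15 at 5.97 and -0.80, and CD36, a fatty acid transporter, at 3.02 and -1.07. The arrays of pair 2 differed in sign for MUC1 (-0.48 and 0.23) and CD36 (0.22 and -2.35).

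LPL, which frees fatty acids from blood lipids, read 5.72 and 5.27 in pair 1 and -2.63 and -2.92 in pair 2, the largest opposition by the smaller pair ratio. Of 18 genes of fatty acid uptake and triglyceride assembly, 10 were higher in pair 1 and lower in pair 2, beside 19.5% of all genes. The medians of the list were 2.37 and -0.33, but on the single arrays of pair 2 they were near 0, at 0.01 and -0.04. GPAM, the first acyltransferase of triglyceride synthesis, stood at 3.14 and -1.81, FABP3 at 7.53 and -0.44 and SLC27A6 at 2.35 and -1.08. On the arrays of pair 2 FABP3 read 1.01 and -1.90, so its sign there differed between them. Of 15 genes of fatty acid synthesis 10 were higher in pair 1 and lower in pair 2, beside 19.5% of all genes. FASN, fatty acid synthase, stood at 4.97 and -1.38, ACSS2, which activates acetate, at 3.82 and -1.21, and SCD, the delta-9 desaturase, at 6.83 and -0.39. Of the 7 kept probes of SCD, 3 stood above 0 in pair 2, at 0.05, 0.38 and 0.05, so its sign there depended on the probe. ACLY, which serves citrate-derived carbon, was lower in both pairs at -1.89 and -0.31. Its other kept probes stood at -1.72 and -0.32 and at 0.59 and 0.13, so the direction of ACLY depended on the probe.

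Cholesterol synthesis was opposed in the same sense for 15 of 21 genes, beside 19.5% of all genes, with medians of 1.76 and -0.30. HMGCS1 stood at 1.71 and -1.13, SQLE at 2.73 and -0.99, IDI1 at 2.71 and -0.99 and MSMO1 at 3.13 and -0.97, while PMVK, a mevalonate pathway kinase, was higher in both at 3.65 and 1.06. Of 16 genes of lactose synthesis and glucose supply, 8 were higher in both pairs, beside 30.4% of all genes. A further 5 were higher in pair 1 and lower in pair 2, beside 19.5% of all genes, among them UGP2 (2.38 and -1.11). B4GALT1, the galactosyltransferase partner of alpha-lactalbumin, stood at 1.09 and -1.49, but its 3 other kept probes were lower in both pairs, from -1.05 to -0.27 in pair 1. The glucose carrier SLC2A4 stood at 5.45 and 0.19, and its other probes at 0.31 and -0.12 in pair 1 and at -0.25 in pair 2. Among regulators, INSIG1, which holds back sterol synthesis, stood at 2.32 and -0.99 and PPARG at 1.15 and -0.76. ABCG2, the milk transporter of riboflavin and drugs, at 4.20 and -1.18, and the milk enzyme LPO, lactoperoxidase, at 6.06 and -1.17, were opposed as well.

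Other genes opposed in this direction among the 8 largest were NDRG4 (3.51 and -2.64), FBN2, a fibrillin (2.79 and -1.97), the copper transporter SLC31A2 (3.67 and -1.71) and PMP22, a tetraspan membrane protein (2.13 and -1.63). Of 39 genes of secretory trafficking 21 were higher in pair 1 and lower in pair 2, beside 19.5% of all genes, with medians of 0.29 and -0.21. ELF5, an epithelial transcription factor of lactation, stood at 2.10 and -0.39, STAT5B, which carries the prolactin signal, at 2.04 and 0.32 and its target CISH at 2.15 and 0.15. Endothelial markers were higher in pair 1 and lower in pair 2 for 8 of 10, beside 19.5% of all genes, with medians of 0.77 and -0.28. Examples were ESAM (2.55 and -0.38) and PECAM1 (1.82 and -0.32). The mean level of the endothelial markers was 9.55 against 8.61 in pair 1 and 9.14 against 9.36 in pair 2.

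The luminal epithelial markers, which check the labelled tissue, were above background in all 8 channels for 12 of 12 genes. Their mean level was 12.16 in the high-yield and 12.42 in the low-yield animal of pair 1, and 12.06 and 12.01 in pair 2. Single markers of that list went different ways in pair 1, KRT18 at -3.25, KRT8 at -2.50 (1 of its 3 other probes at 1.98) and the adhesion protein CDH1 at -2.63, but ELF5 and MUC1 higher. In pair 2 KRT18 stood at 0.81 and KRT8 at 0.48. The part of cell composition in the milk gene results was not tested.

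Of 25 heat shock and immediate early genes, 9 were lower in pair 1 and higher in pair 2, 9 were lower in both pairs and 2 higher in both, where 26.7% of all genes were lower in pair 1 and higher in pair 2. EGR1, a zinc finger factor induced within minutes of a stimulus, read -5.09 and -4.55 in pair 1 and 1.18 and 1.36 in pair 2. FOS, its partner in the same response, read -6.17, -4.62, 0.37 and 0.73. The level of FOS was 14.32 for the low-yield animal of pair 1 and 8.93, 9.54 and 8.99 in the other 3 cows of lactation II. JUN stood at -1.24 and 1.83 and ATF3 at -1.67 and 1.20.

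Of 77 cytosolic ribosomal proteins, 32 were lower in pair 1 and higher in pair 2, beside 26.7% of all genes, with medians of -0.11 and 0.16, so the list stood near 0 in both. Among collagens and matrix genes 12 of 24 had these signs, such as BGN, biglycan (-1.05 and 1.51), although its other kept probes stood at 0.54 and 0.05 in pair 1 and at -0.24 and 0.27 in pair 2. COL3A1 was represented by its brightest probe, at 3.56 in pair 1 and -0.00 in pair 2, whereas its 9 other kept probes stood between -0.50 and -0.06 in pair 1 and between 0.89 and 1.89 in pair 2. The 8 largest genes of this direction were MGC151921 (-2.24 and 3.09), the neurotrophin receptor NGFR (-2.06 and 1.97), ERRFI1, a feedback inhibitor of EGF receptors (-1.87 and 1.49), PGF, a placental growth factor (-1.72 and 1.39), HERC1, NTF4 (-1.35 and 1.37), RGS1 (-1.60 and 1.35) and the thioredoxin-binding TXNIP (-2.26 and 1.35).

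Probes that share sequence made up part of that direction. Of the 48 genes lower in pair 1 and higher in pair 2, 9 (18.8%) had a probe with a run of 16 bases found in probes of 3 or more other genes, against 73 of 12458 tested genes (0.586%). None of the other shared or opposed genes had such a probe. The 9 genes, among them CPPED1 and NIPSNAP1 shown above, lay between -1.58 and -1.11 in pair 1, between 1.00 and 1.39 in pair 2, between 4.56 and 5.19 in pair 3 and between -0.63 and -0.34 in pair 4. ZNF33B, also shown above, ZNF266 and OR4N5 shared such a run with 2 other genes each and had like values, ZNF33B standing at -1.19, 1.15, 5.07 and -0.56 in pairs 1 to 4. HERC1, whose probe has no such run, stood at -1.90, 1.36, 5.07 and -0.35, while its 4 other probes lay between -0.97 and -0.25 in pair 1. The part of shared sequence in these values was not tested, and with such probes left out the opposed count was 98.

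Some genes at the extremes of 1 pair were near 0 in the other, while others, such as SAA3, LCN2, LPL, CIDEA and NXPH3 above, were large in both. In pair 1, BCAS3 (9.63 and -0.20), ALPI, an alkaline phosphatase (9.63 and -0.23), and WIPI2, an autophagy protein (8.17 and -0.33), ranked with the milk proteins. The other probes of these 3 genes lay between -0.43 and 0.23 in pair 1. At the low end of pair 1 stood PDZK1, a scaffold of membrane transporters (-4.10 and -0.18). In pair 2, BDA20, a lipocalin allergen, read 4.31 and 4.44 with 0.07 and 0.62 in pair 1. PNMT, which makes adrenaline, read 4.55 and 3.93 against 0.50 and 0.63, and SERPINA11 read 2.99 and 2.65 against 0.26 and 0.39. DMBT1, a mucosal scavenger protein, read 4.01 and 4.35 in pair 2 and 0.71 and 1.41 in pair 1, and so was among the shared genes.

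A few genes were above background in 1 cow of a pair on both arrays and in the other cow on neither, where the ratio is only a bound from the higher of the dimmest detected signal and the dim probe's own. STATH, statherin, a calcium-binding secretory peptide, was at least 4.33 higher on the log2 scale in the high-yield cow of pair 1 (9.27 against 4.71). In pair 2, where it was not bounded, it stood at -1.85. In pair 1, BOLA-DQA2 was at least 3.29 and AGAP2 at least 2.36 higher. In pair 2, ULBP3, a ligand of the NKG2D receptor, was at least 2.72 higher in the high-yield cow (8.64 against 5.92), and SHISA3 at least 1.61 higher in the low-yield cow (7.62 against 6.01). The limma adjusted p of these 5 genes lay between 0.435 and 0.877.

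The same genes were then read in lactation IV, where pairs 3 and 4 shared no cows with pairs 1 and 2. Pair 1 correlated with pairs 3 and 4 at -0.267 and -0.368 across genes, and pair 2 at 0.215 and 0.119. Of the 60 genes shared higher in lactation II, 14 were higher and 28 lower in both pairs of lactation IV, and of the 21 shared lower, 12 were higher and 1 was lower. Over all genes, 32.7% were higher and 30.6% lower in both of those pairs. Of the 57 genes higher in pair 1 and lower in pair 2, 45 (78.9%) were lower in both pairs of lactation IV. Of the rest, 3 were higher in both pairs of lactation IV and 9 were split.

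SAA3 stood at 2.59 and 3.14 in pairs 3 and 4, TRIB3 at -2.18 and -2.81, PSPH at -3.49 and -3.85, GADD45G at -2.32 and -3.40 and NXPH3 at -1.75 and -1.68. FBP2 (2.44 and 2.25), SCNN1G (2.47 and 1.60), HBA (1.48 and 3.55), ADGRF1 (3.53 and 1.38) and B2M (-0.87 and -1.21) kept their sign in all 4 pairs. The difference between the lactations was tested directly (limma, lactation IV minus II, n = 2 against 2 pairs), and 0 genes passed (0%), with a smallest adjusted p of 0.149, while 983 genes (7.89%) had an unadjusted p under 0.05. Per the file headers each lactation lay on 1 slide and in 1 scan, so lactation and slide cannot be told apart. Without pair 2 the fit of the yield effect in lactation II called 107 genes, and that of the yield effect in lactation IV minus lactation II called 225, but pair 1 is then a lone sample assumed to vary like pairs 3 and 4.

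**Figure D4:**
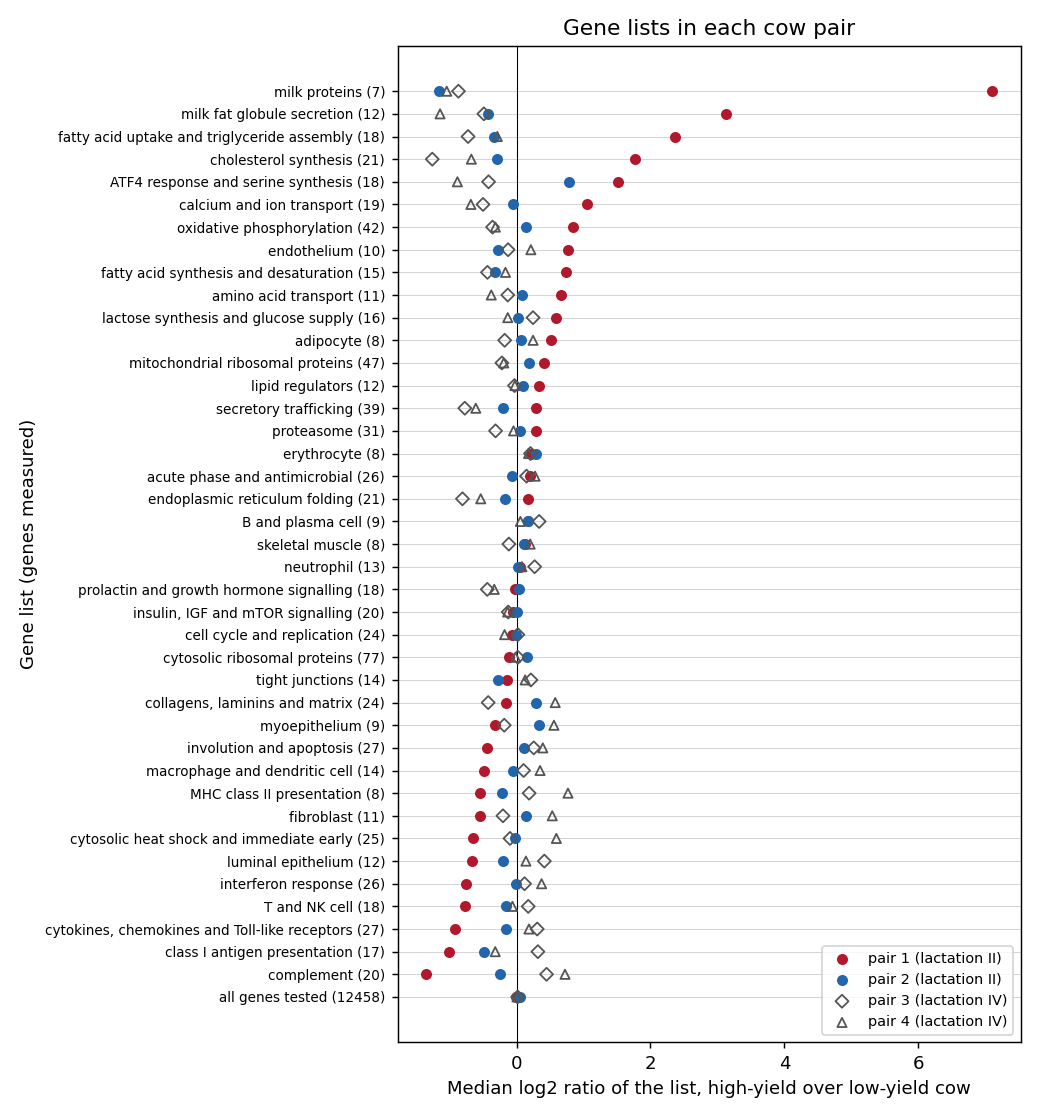
Median log2 ratio of high-yield over low-yield cow for 40 gene lists and for all genes, by cow pair, ordered by pair 1. Milk proteins lie at 7.10 in pair 1 and -1.16 in pair 2. The ATF4 list lies above 0 in pairs 1 and 2 (1.52 and 0.78) and below 0 in pairs 3 and 4 (-0.42 and -0.88), and class I antigen presentation below 0 in pairs 1 and 2 (-1.0 and -0.48).

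Among the other lists, MHC class II presentation had 5 of 8 genes lower in both pairs, with medians of -0.55 and -0.22. Tight junctions had 7 of 14 lower in both, with medians of -0.14 and -0.27. Over all genes, 23.4% were lower in both pairs. Prolactin and growth hormone signalling had medians of -0.02 and 0.03, insulin, IGF and mTOR signalling -0.06 and 0.00, and cell cycle and replication -0.06 and -0.01. Interferon response genes stood at -0.76 and -0.01, with IFI44L at -2.41 in pair 1 and 0.08 in pair 2 and IFIT5 at -1.20 and -0.62. Involution and apoptosis stood at -0.44 and 0.12, where CLU, clusterin, was at -3.44 and 0.09 and CTSL, a lysosomal protease, at 3.70 and 0.69. IGFBP3, which binds IGF1, stood at -1.85 and -0.62, and the tight junction protein CGN at -1.40 and -0.30. Endoplasmic reticulum folding had medians of 0.17 and -0.17, with SDF2L1 at 2.03 and 0.14, and the proteasome 0.29 and 0.05, with PSMD7 at 0.72 and 0.71.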

How the data were processed

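The deposited scanner files held intensity values, spot means and local background medians for both dyes, from Feature Extraction 10.10.1.1 and array design 023647, per the file headers. They also held intensities processed by the scanner software and a log10 ratio of Cy5 over Cy3, per the file headers. A table of log2 ratios was deposited by the authors too, and its making is not given in the sources used here. It was high over low in every column, by comparison with the scanner values, and was used as an alternative.

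From the mean and background intensities, ratios were computed with limma 3.58.1 in R 4.3.3 (normexp with noise from 153 negative control spots, offset 50, then loess within each array, control spots at weight 0). Flagged outlier spots (6 to 118 per array) were left out, and 0 spots were saturated. A probe was kept if well above background in at least 6 of 8 high-yield or 6 of 8 low-yield channels, which left 29867 of 43653 probes. A gene was its kept probe of highest mean intensity (12458 genes). Names came from the probes' accessions and symbols through a table of assembly ARS-UCD2.0. Of 33116 named probes, 24637 matched by accession, 953 by gene number, 6728 by symbol and 279 by an older symbol, and 519 kept the file's name. A further 10537 probes had no name. Cow levels are rebuilt from quantile-normalised mean intensities and the ratios, and are compared within a gene. The fit (lmFit, eBayes, two-sided) took 4 pair means with a mean per lactation and Benjamini-Hochberg adjustment over all genes, and it was tested on simulated data. The number of arrays limits the precision.

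Members, lists and rules were chosen with earlier results of these data known. Named genes, where all 8 channels were above background, were the 10 highest and lowest shared by the pairs, the 8 most opposed each way, the 6 extremes of each pair, all milk proteins and up to 4 examples per list. Members of a list with a ratio of at least 1 in size in both pairs, and genes with 1 cow below background, were added.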

Additional observations from a re-analysis of the deposited data

Results flagged for a closer look

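Levels were looked at for a cow far from the other 3 of its yield group, in the 4 high-yield and the 4 low-yield cows over lactations II and IV, for 42 genes. Of 84 such groups 12 were flagged. Chance flags about 1 in 20 groups, but these genes were chosen for their ratios in pairs 1 and 2 or as milk proteins, so that rate is no yardstick for them. In 9 of them the cow was the low-yield cow of pair 1, below the others. Its levels, as log2 intensity, were 9.74 for LALBA (nearest other cow 17.92), 9.48 for GLYCAM1 (16.54), 10.98 for CSN1S1 (17.65), 12.42 for CSN1S2 (17.35), 14 for CSN2 (17.47), 12.56 for CSN3 (18.03), 13.78 for PAEP (17.60), 8.53 for CIDEA (14.81) and 6.99 for ADGRF1 (10.09). In the other 3 the cow was the high-yield cow of pair 1, above the others, at 19.57 for CSN1S1 (16.96), 19.66 for CSN3 (17.08) and 19.50 for PAEP (17.57). How far rebuilding levels from large ratios raised these values was not tested.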

How the results depend on the processing

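The count of 81 shared genes was 39 with the saddle-point background fit, 184 with the scanner software's processed signals, 137 with arrays scaled to the same spread, 135 from arrays 1 alone (high yield in Cy5), 294 from arrays 2 alone (Cy3), 558 at a ratio of at least 0.5 and 190 with pair 2 from array 2 alone. The count of 105 opposed genes was 55, 193 and 163 under the first 3 of these settings, 68 with the authors' deposited values, 541 at 0.5 and 167 with pair 2 from array 2 alone. That last setting was chosen after seeing the data. The saddle-point fit kept 38 of the 81 and 50 of the 105 genes. The correlation of pairs 1 and 2 was 0.170 from arrays 2 alone. Leaving out 1 pair in turn gave 0 to 107 calls for the yield effect in lactation II, the latter without pair 2, and 0 to 225 for the yield effect in lactation IV minus lactation II, again without pair 2. Every other alternative run gave 0 calls in both.

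Reversed signs were few. Pair 1 minus pair 2 for RPS29 was -0.21 with the authors' deposited values and -0.29 with the median of a gene's probes. The latter setting also gave -0.15 for BCAS3, -1.58 for COL3A1 and -0.99 for HBG, and means of -0.035 for PARD3 and 0.020 for F11R. The mean of BOLA-DQA2 was -0.14 with probes above background in every channel. From arrays 1 alone, means were -0.068 for COX6C, -0.053 for MRPS16, 0.18 for STAT3, 0.066 for ACTA1 and -0.082 for DES. The cause was not tested. The fit with array weights was not run, because both arrays of a pair have residuals of equal size. No paired analysis was possible because the lactations share no replicate numbers; high and low yield are paired on each array. With 2 pairs, and 22027 to 42482 probes above background per channel, small differences were not detectable. Large ones did not pass either: NXPH3 and SAA3, with means of 3.09 and -3.41, had an adjusted p of 0.379 by limma. The 0 calls of the main fit therefore do not show that large differences were absent.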
